A study of Mus musculus with 2 samples.

Results

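Mir126a, Mir143 and Mir145a are the genes of 3 microRNAs (miRNAs) of the blood vessel wall. They were chosen by name from the GENCODE M21 annotation, by a rule that uses none of their values but with earlier results of these data known, and all 3 were found among the 1973 miRNA genes counted. Small RNA was sequenced from the neural tube, from which brain and spinal cord form, of B6NCrl mouse embryos at 12.5 days of development. The samples form a single untreated group of 2 biological replicates, each a pool of male and female embryos, with 120 embryos in replicate 1 and 88 in replicate 2. No genotype, treatment or age was compared, so the comparisons are those among genes within a library and those between the 2 libraries.

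A miRNA is cut from a hairpin in a longer transcript and guides silencing of messenger RNAs that match its seed, the stretch near its 5′ end. Mir126a lies within Egfl7, a gene for a protein secreted by endothelial cells, and its miRNA is known for raising the response of endothelium to vascular growth factors during vessel growth. Mir143 and Mir145a are neighbours that are known to come from a shared primary transcript, and their miRNAs promote the contractile state of smooth muscle cells and mark mural cells, the pericytes and smooth muscle around vessels. Vessels are not made by the neural epithelium but grow into it from outside, so these genes serve as markers of other cells within or attached to the dissected tissue.

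By GENCODE M21 (GRCm38, mm10), Mir126a lies on the plus strand at chr2:26591357-26591429. Of 19 annotated transcripts of Egfl7, 9 span it: it is intronic in 8 and lies in an exon of 1, a retained-intron transcript. It also lies in an intron of the only transcript of Gm20532. Sequences are shown for Mir126a, which carries most of the reads of the 3 genes, and for an antisense gene that shares its place. The source used holds none for Mir143 or Mir145a. The sequences shown are from RefSeq (GRCm38.p6), 5′ to 3′. Capitals in the hairpin mark the mature arm listed in that table, and capitals in the mature miRNAs mark the seed (bases 2 to 8).
Mir126a hairpin: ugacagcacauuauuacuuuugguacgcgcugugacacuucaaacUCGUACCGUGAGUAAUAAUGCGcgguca
miR-126a-3p: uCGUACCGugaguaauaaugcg
miR-126b-5p: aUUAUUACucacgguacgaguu
The seed of miR-126a-3p was shared with 0 of the other mature miRNAs in a table of 1738. That table is incomplete, as it lacks miR-126a-5p and the miRNAs of Mir143, Mir145a and Mir145b. Mir126b is an annotated hairpin of 58 bases on the minus strand (chr2:26591363-26591420), within the 73 bases of Mir126a and equal to its reverse complement there. Its miR-126b-5p covers 19 bases of the place of miR-126a-3p on the other strand. Mir126b has no line of its own in the count tables.

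Mir143 (chr18:61649196-61649258) and Mir145a (chr18:61647825-61647894) lie on the minus strand, 1301 bases apart. Neither overlaps another gene in M21. The long noncoding RNA gene Carmn, which is on the same strand and known from heart and smooth muscle development, ends 366 bases upstream of Mir143. The long noncoding RNA gene Bvht, known from heart development, lies on the plus strand 352 bases beyond Mir145a. Both miRNA genes carry a later version number of their identifier in M21 than in the counts, so their limits may have changed between the releases.

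The endothelial gene Mir126a was the most read of the 3, with a mean of 19281 CPM, followed by the mural genes Mir143 with 5340 and Mir145a with 63.0 CPM. Reads on the gene's own strand numbered 4802411 in replicate 1 and 4422853 in replicate 2, and CPM stands for reads per 1000000 of these. Each read comes from 1 short RNA, so counts were not divided by gene length, and a count holds both arms of a hairpin. Together the 3 genes held 2.55% of gene reads in replicate 1 and 2.38% in replicate 2 (2.47% ± 0.121, SD, n = 2). Mir126a supplied 78.1% ± 2.03 of their joint reads, Mir143 21.7% ± 2.01 and Mir145a 0.256% ± 0.0206. In bulk tissue, fewer cells of a type and less RNA per cell cannot be told apart.

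Mir126a, the endothelial gene, had 97510 reads in replicate 1 and 80754 in replicate 2. This corresponded to 20304 CPM (95% exact binomial interval 20178 to 20431) and 18258 CPM (18134 to 18384). Replicate 1 was thus the higher of the pools, and the counting intervals did not overlap. Intervals cover counting error within a library only, not the spread between pools. They may also be too narrow, since amplified reads that carry no molecular identifier do not each stand for a separate molecule. The mean of 19281 ± 1447 CPM (SD, n = 2) placed Mir126a 8th of all genes in replicate 1 and 9th in replicate 2, and was 168.2 times the median of the 371 detected genes, meaning those that reached 10 reads in each library.

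The genes next to Mir126a in level were Mir17 and Mir99b above it, and Mir130a and Mirlet7g below. Mir99b had 21576 and 21262 CPM in replicates 1 and 2, above Mir126a in both. Mir130a, itself described as promoting angiogenesis, had 18382 and 19048 CPM and so was below Mir126a in replicate 1 and above it in replicate 2. The means of Mir126a and Mir130a did not differ by more than their spread (ratio 1.03 ± 0.103, n = 2). The order against the other 3 neighbours was the same in both libraries.

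**Figure D1:**
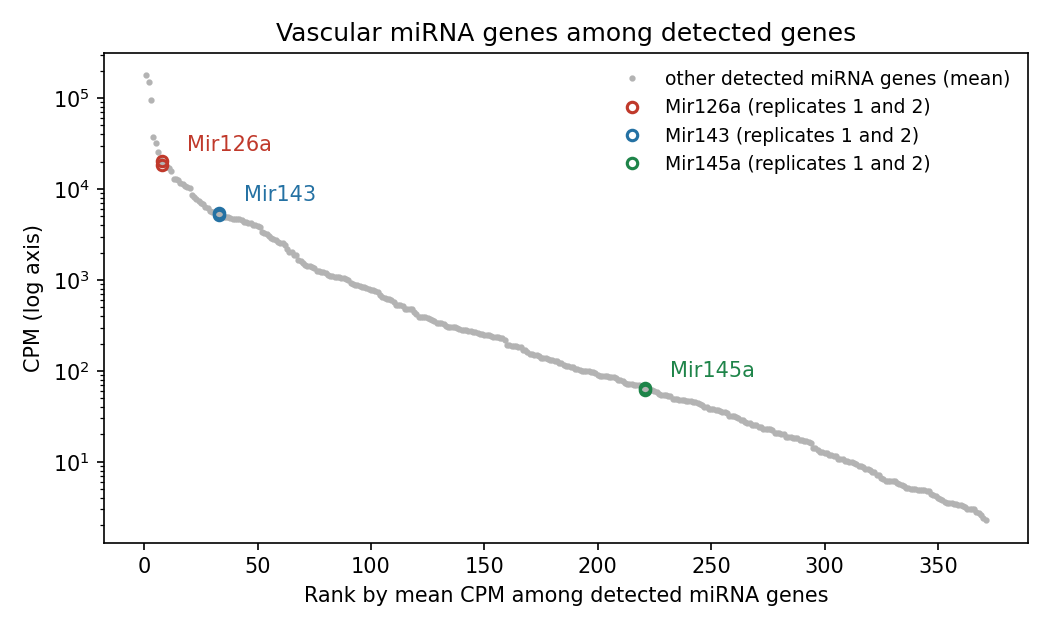
Level of the 371 detected miRNA genes (CPM, log axis) against their rank by mean CPM. Grey points are means of 2 libraries, and open circles give both libraries for Mir126a, Mir143 and Mir145a, whose means were 19281, 5340 and 63.0 CPM. Mir126a and Mir143 sit in the upper tail and Mir145a below the middle of the order.

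Mir143, the first of the mural pair, had 24854 reads in replicate 1 and 24346 in replicate 2, or 5175 CPM (5111 to 5240) and 5505 CPM (5436 to 5574). Here replicate 2 was the higher pool. The gene stood 33rd in replicate 1 and 30th in replicate 2, and its mean of 5340 ± 232.8 CPM was above 91.1% of detected genes. Its closest neighbours were Mir219a-2, a gene of the oligodendrocyte lineage, and Mir214, a gene of mesenchyme, above it, with Mir130b and Mir151 below. Mir214 had 6231 and 4836 CPM, above Mir143 in replicate 1 and below it in replicate 2. Mir219a-2 and Mir130b also changed sides, and none of these 3 differed from Mir143 in mean by more than the spread. Mir151 was below Mir143 in both libraries (ratio of Mir143 to Mir151 1.09 ± 0.0842). Mir219a-2 shares 20 bases of hairpin with 1 other miRNA gene, so its value may lack multiply mapped reads.

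Mir145a, the other mural gene, had 296 reads in replicate 1 and 285 in replicate 2. Its level was 61.6 CPM (54.8 to 69.1) in replicate 1 and 64.4 CPM (57.2 to 72.4) in replicate 2, and the intervals overlapped. The mean of 63.0 ± 1.98 CPM was 0.550 times the median of detected genes and above 40.4% of them. Its neighbours in level were Mir1298 and Gm23935 above, and Mir192, a gene of endoderm, and Mir666, of the imprinted Dlk1-Dio3 region, below. Of these, Mir1298 alone differed from Mir145a in mean by more than the spread, with a ratio of Mir145a to Mir1298 of 0.915 ± 0.0729. Mir1298 had 71.4 CPM in replicate 1 and 66.7 in replicate 2, the latter within the counting interval of Mir145a. At such read numbers an SD of 2 values can be smaller than counting error. Gm23935 has 20 hairpin bases in common with 5 other miRNA genes.

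Mir145b, an annotated relative of Mir145a elsewhere on chromosome 18, was read 0 times in either library, so its level could be up to 0.625 CPM in the first and 0.678 CPM in the second (3 counts). None of the 3 members shared 20 bases of hairpin with another annotated miRNA. The longest shared run was 11 bases for Mir126a, 11 for Mir143 and 17 for Mir145a, the last with Mir145b. Reads that map to several places make up 27.0% of the file of replicate 1 and 28.6% of that of replicate 2 and are in no gene's count. The rest of the genome was not searched for copies.

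The endothelial gene outnumbered the mural genes in both pools. Mir126a had 3.92 times the reads of Mir143 in replicate 1 (95% interval 3.87 to 3.98) and 3.32 times in replicate 2 (3.27 to 3.36), a mean of 3.62 ± 0.429. The ratio was above 1 by more than its spread. It differed 1.18-fold between the pools, or 0.24 on the log2 scale, less than the SD of 0.33 that a common coefficient of variation of 16.4% gives the log2 ratio of 1 gene between them. Mir126a had 329.4 times the reads of Mir145a in replicate 1 and 283.3 times in replicate 2.

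Within the mural pair the gap was wide in both pools. Mir143 had 84.0 times the reads of Mir145a in replicate 1 (74.9 to 94.5) and 85.4 times in replicate 2 (76.0 to 96.3), a mean of 84.7 ± 1.03 (n = 2). The ratio differed by 1.02-fold between the pools, less than the width of either counting interval, so how steady it is cannot be told from 2 libraries. The values compare read numbers, and whether each miRNA entered the libraries with equal efficiency was not measured.

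Unequal reads from neighbouring miRNA genes were common in these libraries, so the pair was set beside all such pairs, a comparison chosen after the values were seen. Among detected genes there were 109 pairs of next neighbours on the same strand within 10 kb, with a median ratio of the higher to the lower gene of 6.53 and an upper quartile of 27.8. The ratio of Mir143 to Mir145a was above that of 84.4% of pairs, and 16 pairs had a larger one. Pairs with a gene under 10 reads in either library, whose ratios could be larger, are not among the 109. In the 66 pairs in which neither gene shares 20 bases with another hairpin, the median ratio was 5.88 and 5 pairs exceeded Mir143 and Mir145a. They were Mir382 with Mir544, Mir323 with Mir1197, Mir20a with Mir19a, Mir341 with Mir1188 and Mir370 with Mir1188, at 433.9, 246.5, 101.2, 101.0 and 93.7 times. Pairs that have a gene in common are not independent, and the percentages are a description.

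**Figure D2:**
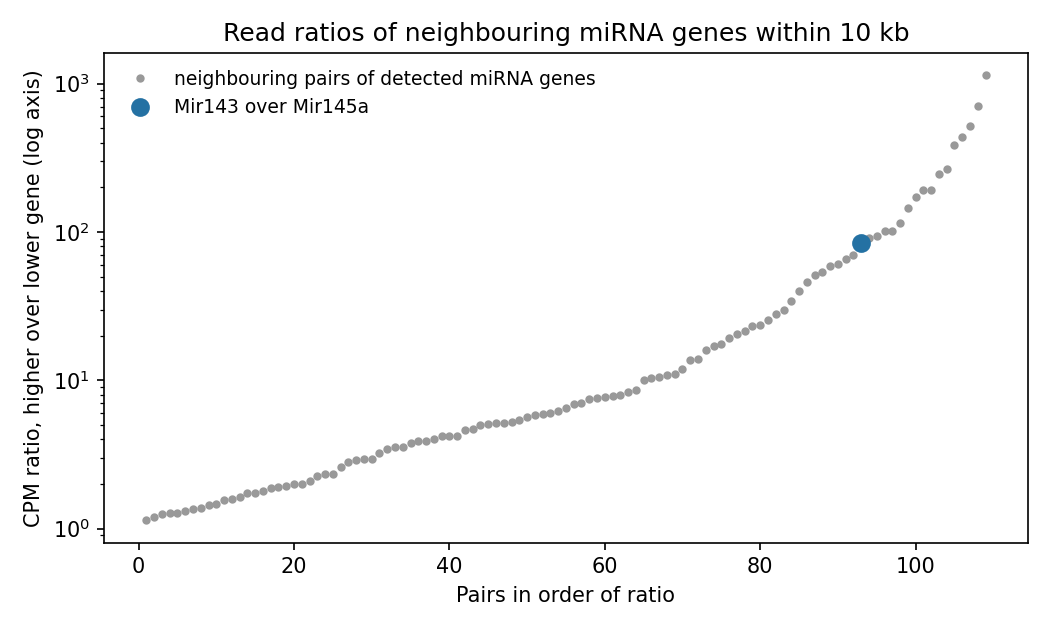
Ratio of CPM of the higher to the lower gene (log axis, mean over 2 libraries on the log2 scale) for 109 neighbouring pairs of detected miRNA genes on the same strand within 10 kb, in order of the ratio. The blue point is Mir143 over Mir145a at 84.7, with 16 pairs above it.

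Both strands were counted separately. Of the reads at Mir143 and at Mir145a, 0 lay on the opposite strand in either library, which allows a share of up to 0.0121% and 0.0123% at Mir143 and of up to 1.01% and 1.05% at Mir145a in replicates 1 and 2. At Mir126a, 99.9928% of reads in replicate 1 and 99.9938% in replicate 2 were on its own strand.

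Between the pools none of the 3 genes was called different. For every detected gene the split of its reads between the libraries was set against their TMM-scaled totals in an exact binomial test (two-sided, Benjamini-Hochberg adjusted over 371 genes). A gene was called at an adjusted p under 0.05 and a difference of 2-fold or more. By this rule 2.70% of detected genes were called, and 0 of the 3 members. Mir126a was 1.08-fold higher in replicate 1 (log2 ratio 0.11, exact binomial adjusted p = 2.7e-61), Mir143 1.09-fold lower (-0.13, adjusted p = 4.2e-22) and Mir145a 1.07-fold lower (-0.10, adjusted p = 0.53). Without a fold minimum Mir126a and Mir143 passed, as did 53.1% of all detected genes. This test covers counting error alone and compares the libraries, not conditions. The 3 absolute log2 ratios were all below 0.24, the median over detected genes, and each was larger than that of 23.2% to 28.6% of them.

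**Figure D3:**
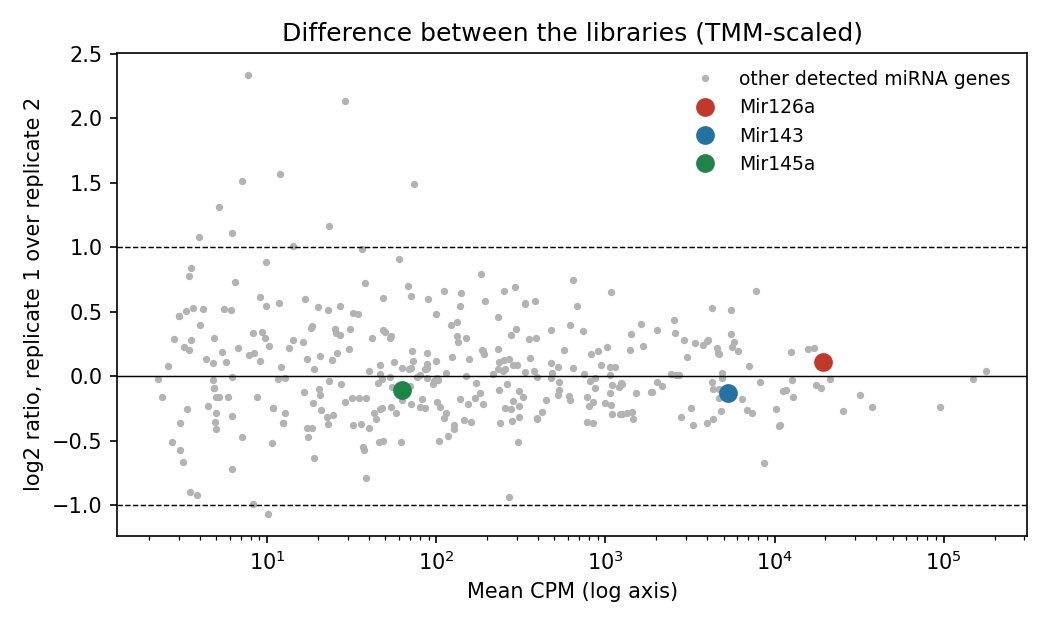
Log2 ratio of replicate 1 over replicate 2, scaled by TMM, against mean CPM (log axis) for detected miRNA genes, with dashed lines at 2-fold. Mir126a (0.11), Mir143 (-0.13) and Mir145a (-0.10) lie close to the line of no difference.

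Lists of marker genes for other cells that the dissection could hold were read in the same way. The mesenchyme list, whose cells surround the neural tube, had 4 of 5 members detected and held 1.07% ± 0.105 of gene reads, against 1.93% ± 0.145 for Mir126a and 0.540% ± 0.0235 for Mir143, Mir145a and Mir145b together. Of its 5 genes, 3 (Mir199a-1, Mir199a-2 and Mir199b) each share 20 hairpin bases with 2 others, so its share may lack multiply mapped reads, whereas 0 of the vascular genes share such a stretch. Mir214 and Mir140, a gene of cartilage and its precursors, led that list. Mir140 had 4949 CPM in replicate 1 and 4850 in replicate 2, and the ratio of Mir143 to Mir140 was 1.05 and 1.13 (1.09 ± 0.0631). Mir143 was thus above Mir140 in both pools, while against Mir214 its ratio was 0.831 in replicate 1 and 1.14 in replicate 2. The share of the mesenchyme list was 1.15 times higher in replicate 1 than in replicate 2, that of Mir126a 1.11 times higher, and that of the mural list 0.940 times as high. The mesenchyme genes did not move together. Their TMM-scaled log2 ratios of replicate 1 over replicate 2 were 0.33 for Mir214, -0.01 for Mir140, 0.06 for Mir199b and -0.50 for Mir199a-2. Reads from smooth muscle around vessels and from other mesenchyme were not separated.

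The counted genes of blood cells, which vessels carry, were far lower. Of the erythroid list 3 of 3 counted members were detected, with 0.0112% of gene reads in replicate 1 and 0.0102% in replicate 2, led by Mir451a and Mir144, genes of maturing red cells. Its member Mir486 shares 20 hairpin bases with 1 other miRNA gene, and Mir486b has no line in the counts. The share may thus lack multiply mapped reads. Mir451a had 76.6 and 68.7 CPM, and Mir144 had 14.8 and 19.9 CPM. The ratio of Mir126a to Mir451a was 265.0 in replicate 1 and 265.6 in replicate 2, while that of Mir126a to Mir144 was 1373 and 917.7. The leukocyte list had 3 of 4 counted members detected, with 0.0349% and 0.0303% of gene reads. Its leading gene Mir223, of myeloid cells, had 201.8 and 170.3 CPM, and Mir155, of activated lymphocytes and macrophages, 131.2 and 115.3 CPM. Mir126a had 103.9 ± 4.68 times the reads of Mir223 (n = 2). The leukocyte gene Mir142 has no line in the counts, so its reads are not in this share. Mir142b, the gene antisense to it, had 0 reads on its own strand in both libraries and 1230 and 1118 on the opposite strand, against 97510 and 80754 own-strand reads of Mir126a. The part of blood and mesenchyme in the values of the members was not tested.

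**Figure D4:**
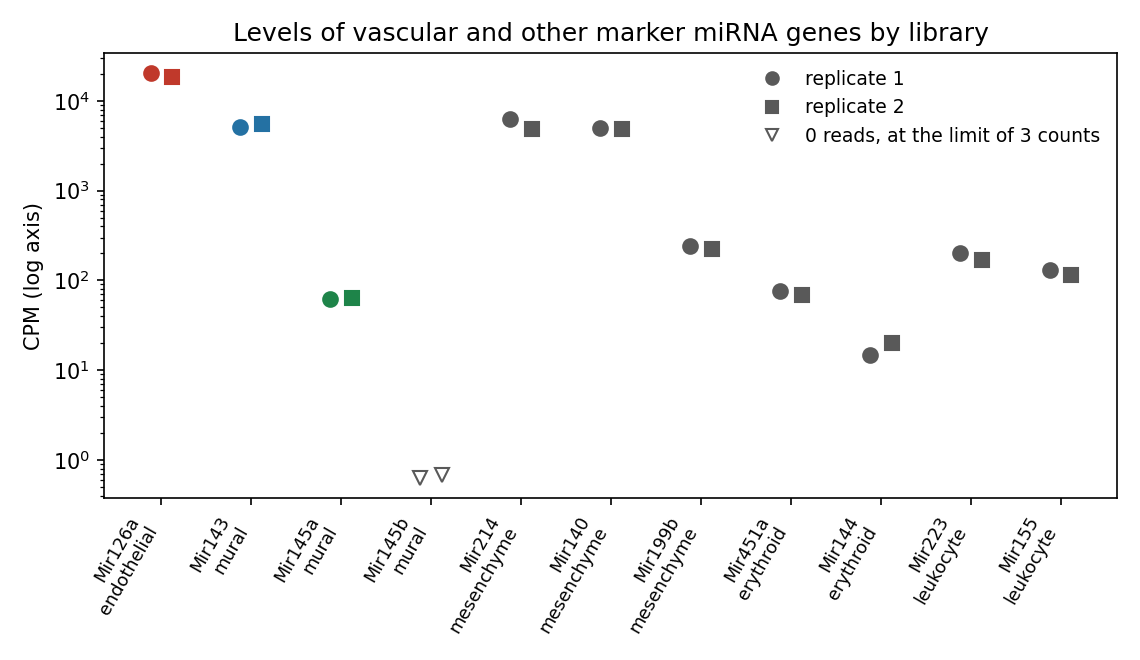
CPM (log axis) of the vascular genes and of marker genes of mesenchyme, erythroid cells and leukocytes in replicate 1 (circles) and replicate 2 (squares). Open triangles mark 0 reads, drawn at the limit of 3 counts. Mir143 lies at about the same height as Mir214 and Mir140, and Mir145a at about that of Mir451a.

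Neural genes, of the labelled tissue, were read as well. Of 9 counted, 7 were detected with 0.404% and 0.446% of gene reads in replicates 1 and 2. Mir137, a regulator of neuronal differentiation, had 2541 and 3077 CPM, and Mir153 had 807.9 and 806.3. These are the highest of the list, whose detected genes had a median of 193.2 CPM and a minimum of 3.95 (Mir9-2). Mir124a-1 and Mir124a-3 did not reach detection. The mean share of the neural list, 0.425%, was below that of the mural list (0.540%), the mesenchyme list (1.07%) and Mir126a (1.93%). Of the 9 genes, 7 share 20 bases with another hairpin, among them the Mir124a and Mir9 genes, and their reads at several places are not counted.

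A wider list of miRNA genes described in endothelium or angiogenesis had 27 of 27 counted members detected, with a median of 1238 CPM against 114.7 CPM over all detected genes and a range from 20.5 CPM (Mir181b-1) to 178286 CPM (Mir10a). Its members held 46.9% ± 0.145 of gene reads, led by Mir10a and Mir10b, which lie in Hox clusters and are expressed in many cells of the body axis, so the share does not measure endothelium. Mir10a, Mir10b, Mir100 and Mir17 were above Mir126a in both libraries, and Mir130a in replicate 2 alone. Mir210, a gene induced by low oxygen, had 313.2 and 340.7 CPM. Mir221 and Mir222, known as restraints on endothelial growth signalling, had 99.7 and 73.3 CPM in replicate 1 and 134.1 and 68.3 in replicate 2. Between the pools 0 of the 27 genes passed the exact binomial test with at least 2-fold, against 2.70% of all detected genes. Without a fold minimum 6 were higher and 16 lower in replicate 1. Among all 371 detected genes 97 were higher and 100 lower, or 53.1% in all. A test of counting error passes smaller differences in genes with more reads, and this list has the higher median. Neighbouring genes such as Mir17, Mir18, Mir20a and Mir19a, all lower in replicate 1, are not independent. Of the 27, 11 share 20 bases with another hairpin.

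The list of other genes described in vascular smooth muscle or pericytes was lower, with 10 of 15 counted members detected and a median over those of 98.8 CPM. Mir21a, a growth-associated gene of smooth muscle and many other cells, had 3888 and 4768 CPM, and Mir125a had 5070 and 3419. Mir143 was above both in each library, but the mean of Mir125a (4244 ± 1168 CPM) did not differ from that of Mir143 by more than the spread. Mir145a was below the median of the list. The muscle genes Mir133a-1 and Mir133a-2 had 0 reads in both libraries, and each shares 20 bases with 2 other miRNA genes, as do 10 of the 15 with at least 1. Between the pools 0 of the 10 detected genes passed with at least 2-fold, against 2.70% of all detected genes. Without a fold minimum 3 were higher and 3 lower in replicate 1, against 97 and 100 of the 371, or 53.1% in all.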

How the data were processed

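Raw counts of reads per miRNA gene were deposited for each library, for both strands together and for each strand alone. Each was made from its own library's alignment to mm10 with annotation M4, per the descriptions deposited beside them. For the aligner, counter and trimming, names are not given in the sources used. The 4 lines that name no gene were left out of totals: unmapped reads were 27.3% and 20.0% of the file in replicates 1 and 2, reads at several places 27.0% and 28.6%, and reads on no feature 8.04% and 4.45%. Of the strand columns, the one with more gene reads was used as the own strand, and a count of 0 allows 0.625 and 0.678 CPM. Intervals are exact binomial (Clopper-Pearson, 95%).

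Symbols and coordinates came from GENCODE M21, where 1894 of 1973 identifiers matched without version. Scaling factors and the coefficient of variation came from edgeR 4.0.16, other size factors from DESeq2 1.42.0 (R 4.3.3), and the rest from Python 3.11.15 with scipy 1.17.1. edgeR's quasi-likelihood test needs 2 groups and was not applied. The exact binomial test was checked on simulated Poisson counts of 371 genes, where 100% of 200 genes set 4-fold apart and 1.17% of the others were called. The simulated counts held no spread beyond counting error, whereas the libraries had a common coefficient of variation of 16.4%. These rates thus do not measure how the rule performs on the data, or for genes 2-fold apart. The genes named are the members, the 2 next above and below each in mean CPM, and the leading 2 of each list, with others chosen after their values were seen. Members and lists were chosen with earlier results of these data known.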

Additional observations from a re-analysis of the deposited data

Results flagged for a closer look

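Reads on the strand opposite to Mir126a, which the levels in the report do not use, numbered 7 in replicate 1 and 5 in replicate 2, above the 3 counts that a count of 0 allows in each library. That limit is not a background for stray reads at a gene with as many reads as Mir126a. The opposite-strand reads were 0.00718% and 0.00619% of the reads at this place, and Mir143 and Mir145a had 0 such reads. Over all genes, opposite-strand reads were 1.72% and 1.48% of gene reads on both strands in replicates 1 and 2. That total includes genes read mainly on the opposite strand, such as Mir299b with 4254 and 3767 such reads. It is thus not a rate of stray reads. Mir10a and Mir10b, with more own-strand reads than Mir126a, had 3 and 0 opposite-strand reads and 0 and 0. Mir183, with fewer own-strand reads than Mir126a, had 9 and 11. Of the 371 detected genes, 15 (4.04%) had opposite-strand reads in both libraries. The annotated gene Mir126b lies on that strand at this place. Which mature sequence these reads carry was not tested.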

How the results depend on the processing

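With multiply mapped reads added to the denominator, Mir126a had 11578 CPM, Mir143 3215 and Mir145a 37.9. Without Mir10a and Mir10b in it, they had 28691, 7940 and 93.7 CPM. Both follow from the changed totals and leave ratios between the genes as they were. With TMM library sizes or both strands counted, the 3 levels moved by less than 1 SD. Without either replicate, the levels ranged from 18258 to 20304 CPM for Mir126a, 5175 to 5505 for Mir143 and 61.6 to 64.4 for Mir145a. The same ranges were 3.32 to 3.92 for the ratio of Mir126a to Mir143, 84.0 to 85.4 for Mir143 to Mir145a and 283.3 to 329.4 for Mir126a to Mir145a. Genes at least 2-fold apart between the pools numbered 10, and 2 with a minimum of 100 reads, where 269 genes were tested. The other settings (library totals, DESeq2 size factors, 1 read in either library, both strands) gave 10 to 13. In all 5 alternatives run for the comparison of the pools, each member kept its direction and stayed under 2-fold. Adjusted p-values ranged from 1.4e-112 to 9.8e-36 for Mir126a, 1.1e-31 to 7.9e-11 for Mir143 and 0.51 to 0.72 for Mir145a. No paired analysis was possible because the samples form 1 group. With 285 to 296 reads, Mir145a is the member that depth limits most.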
